A study of Mus musculus with 96 samples.

Results

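The Obox genes encode homeobox proteins of the oocyte and early embryo. The 7 members described here, Obox1, Obox2, Obox3, Obox5, Obox6, Obox7 and Obox8, were taken by their mouse symbols from the 55401 gene rows of the deposited table, and 48 other rows carry an Obox symbol, most of them Obox4 and Obox3 copies listed as pseudogenes. Each library came from 1 untreated oocyte or embryo of the mouse strain C57BL/6J. The females were superovulated with PMSG and HCG and mated with C57BL/6J males, and cumulus cells were removed with hyaluronidase. The 96 libraries fall into 16 groups, which are 8 oocytes, then embryos collected by hours after fertilization, and 7 morulae. There were 5 embryos in each of the groups 0 h, 2 h, 8 h, 10 h, 12 h, 14 h and 20 h, while 4 h held 2, 6 h held 3, 16 h held 8, 18 h held 9, 22 h held 10, 24 h held 6 and 36 h held 8. The 0 h to 36 h embryos were processed as 1 cohort and the oocytes and morulae in separate batches, so batch and stage cannot be told apart in 0 h embryos against oocytes or in morulae against 36 h embryos.

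Obox proteins belong to the paired-like class of homeodomain proteins, in which the third helix of the homeodomain lies in the major groove of DNA and reads the base sequence. The family is found in rodents, and its genes lie in a cluster on mouse chromosome 7. Maternal Obox1, Obox2, Obox5 and Obox7 messages are stored in the oocyte, other members are transcribed by the embryo, and mouse embryos that lack much of the cluster fail in genome activation, the step at which the embryo starts its own transcription.

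The 60 coding bases for the end of the homeodomain, recognition helix included, show how close the members are. They are printed 5′ to 3′ from the GENCODE transcripts, with capitals at bases that differ from Obox1.
Obox1: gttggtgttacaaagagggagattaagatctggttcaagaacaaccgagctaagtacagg
Obox2: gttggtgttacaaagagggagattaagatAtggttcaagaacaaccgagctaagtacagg
Obox3: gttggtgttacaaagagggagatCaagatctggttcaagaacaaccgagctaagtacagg
Obox5: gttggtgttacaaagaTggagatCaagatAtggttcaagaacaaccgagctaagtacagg
Obox7: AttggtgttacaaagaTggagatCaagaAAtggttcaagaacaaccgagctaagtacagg
Obox6: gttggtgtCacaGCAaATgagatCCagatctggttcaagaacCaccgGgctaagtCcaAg
Obox8: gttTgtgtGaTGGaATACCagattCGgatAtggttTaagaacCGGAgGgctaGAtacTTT
Obox2 and Obox3 each differed from Obox1 at 1 of the 60 bases, Obox5 at 3 and Obox7 at 5. Obox6 differed at 12 bases and Obox8 at 24. Obox3, a gene of the embryo by its level, was in this stretch as close to Obox1 as Obox2 was. Each stretch crosses an exon junction, and in Obox2 the longest reading frame of the transcript, 151 codons against 204 in Obox1, reads it in another frame.

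The same closeness limits the counting. On GRCm38 the 7 genes lie on chromosome 7 between bases 14331436 and 15839678, with Obox8 (ENSMUSG00000099216.1) at chr7:14331436-14333557 and Obox7 (ENSMUSG00000055942.13) at chr7:14659496-14665996. Obox2 (ENSMUSG00000074369.12) lies at chr7:15388721-15398545 and Obox1 (ENSMUSG00000054310.16) at chr7:15388948-15556866, and their exons overlap by 59 bases. Obox3 (ENSMUSG00000066772.12) lies at chr7:15479825-15639902, Obox5 (ENSMUSG00000074366.9) at chr7:15750131-15759800 and Obox6 (ENSMUSG00000041583.8) at chr7:15833241-15839678. Of the 50-base words in their transcripts, 57.4% in Obox1 and 65.1% in Obox2 also occurred in another gene, mainly in each other. The share was 21.1% in Obox7, 20.2% in Obox3, 18.1% in Obox5, 5.0% in Obox6 and 0% in Obox8. Apart from Obox5, the members kept the order of these shares in how often their deposited counts held fractions. Fractions occurred in 81.2% of the nonzero Obox2 values and in 0% of the Obox8 values. Obox5 departed from the order, with fractions in 80.2% of its nonzero values beside a share of 18.1%. How the reads of near-identical copies were divided is not given in the sources used here. The split between Obox1 and Obox2 is therefore uncertain, as is the part of the Obox5 counts that came from divided reads.

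The promoters are shown because Obox3, low in the oocyte, shares sequence there with members that are abundant in it. Printed are the 250 bases before the RefSeq start on GRCm38.p6, with capitals at a run of 25 bases found in each of the 5 member promoters listed, those of Obox1, Obox2, Obox3, Obox5 and Obox7.
Obox1, chr7:15547007-15547256, + strand: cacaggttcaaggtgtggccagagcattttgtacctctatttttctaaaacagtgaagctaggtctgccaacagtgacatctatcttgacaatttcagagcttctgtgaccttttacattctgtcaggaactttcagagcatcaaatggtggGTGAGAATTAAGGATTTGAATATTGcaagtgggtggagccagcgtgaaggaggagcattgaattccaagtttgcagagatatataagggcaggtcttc
Obox5, chr7:15750120-15750369, + strand: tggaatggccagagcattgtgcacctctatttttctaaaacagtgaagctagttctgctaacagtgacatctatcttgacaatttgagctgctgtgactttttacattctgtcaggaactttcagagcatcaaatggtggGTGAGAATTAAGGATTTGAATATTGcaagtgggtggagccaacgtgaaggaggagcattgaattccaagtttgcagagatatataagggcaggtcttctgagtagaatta
Obox3, chr7:15639778-15640027, - strand: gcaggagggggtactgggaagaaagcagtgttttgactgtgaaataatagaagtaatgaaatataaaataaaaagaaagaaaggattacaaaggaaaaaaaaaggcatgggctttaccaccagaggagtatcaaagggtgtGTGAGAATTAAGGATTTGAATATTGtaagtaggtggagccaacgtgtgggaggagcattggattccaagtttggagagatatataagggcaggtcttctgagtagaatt
The run, GTGAGAATTAAGGATTTGAATATTG, was searched on both strands in windows of 300 bases, 250 before and 50 after each start, and was held by 5 of 32851 promoters, the 5 members. It began at base -98 from the start in Obox1, -1 in Obox2, -109 in Obox3, -110 in Obox5 and -84 in Obox7. Without gaps, the Obox1 window matched Obox7 at 93.7% of 286 bases, Obox5 at 78.1% of 288 and Obox3 at 63.7% of 289. The Obox1 and Obox2 windows were identical over the 203 bases that they share. TATAAG occurred 1 time each in Obox1, Obox3, Obox5 and Obox7 and in 7.4% of all promoters. GGATTA occurred 1 time, in Obox3, and in 7.1% of all promoters, and TAATTG was in none of the 5 members and in 8.0% of all promoters.

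Levels below are CPM of the gene total with library factors by the trimmed mean of M-values (TMM), and levels of different genes are compared only per kilobase of exon. Gene totals ran between 10223 and 6795040 counts, with a median of 2099014. SMART-Seq v4 primes on poly(A) tails, so a message's abundance and its tail length cannot be told apart, nor, in embryos of several cells, fewer expressing cells and less RNA per cell. P-values measure the spread between single embryos of 1 strain. Each of 9 oocyte markers had counts in every group, morulae included, so having counts does not identify the oocytes. Their sum did separate oocytes (14531 to 20771 CPM) from morulae (68.7 to 2285.5 CPM). The sum of 10 morula markers did not mark the morulae, where its median (197 CPM) was below that of the oocytes (309 CPM). Of all groups, oocytes had the highest median sum of cumulus and granulosa markers (584 CPM). Replicate numbers are those of the libraries in each group. 2 libraries stood apart before any comparison. Replicate 5 of the 10 h embryos had a median correlation of 0.105 with its group, an oocyte marker sum of 25.5 CPM where the group's median was 21309.7 CPM, and a cumulus and granulosa marker sum of 8748 CPM where the median was 158.5 CPM. Replicate 4 of the morulae had 10223 counts, where the next lowest library of the series had 564266, and a correlation of 0.431 with its group. Levels and changes of single members that rest on these libraries are given with and without them. The summed CPM of the members, the genes of the lists and the likeness to other genes are given with them only.

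Obox2 was the most abundant member of the oocyte per kilobase of exon, at 6894 ± 896 CPM per kb (SD, n = 8), above Obox1 at 3370.2 ± 318 CPM per kb and Obox5 at 2869 ± 203 CPM per kb. Obox7 had 499.8 ± 73.3 CPM per kb. Obox3, Obox6 and Obox8 each stayed under 4 CPM per kb in every oocyte. These are homeodomain proteins that the oocyte stores as message, and together the 4 maternal members came to 24679 ± 2389 CPM of the oocyte's gene total.

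Through the one-cell stage the mean levels of the maternal members were highest at 6 h, 8 h and 12 h, and at 10 h too without replicate 5, a library that stands apart. Obox2 averaged 11348 ± 1474 CPM in oocytes, 11782 ± 2445 CPM (0 h), 22074 ± 3642 CPM (6 h), 19852 ± 7131 CPM (12 h), 11669 ± 3155 CPM (14 h) and 9387 ± 3027 CPM (16 h), as mean ± SD over 8, 5, 3, 5, 5 and 8 libraries. Obox1 averaged 6403 ± 604 CPM in oocytes, 5514 ± 1108 CPM (0 h), 10411 ± 1916 CPM (6 h), 9733 ± 2881 CPM (12 h), 5929 ± 1337 CPM (14 h) and 5439 ± 855 CPM (16 h). Obox5 averaged 6128 ± 434 CPM in oocytes, 4278 ± 741 CPM (0 h), 8047 ± 1666 CPM (6 h), 7595 ± 2645 CPM (12 h), 4186 ± 1172 CPM (14 h) and 4538 ± 932 CPM (16 h). Obox7 followed at a lower level, with 801 ± 117.5 CPM in oocytes, 1120.3 ± 49.8 CPM (6 h), 894 ± 342 CPM (12 h) and 534 ± 135.6 CPM (16 h).

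In the order of the group means, neighbouring groups overlapped nearly throughout. For Obox1 the range of single libraries broke between 16 h (lowest 4341 CPM) and 36 h (highest 1055 CPM). For Obox2 it broke between 24 h and 36 h, and for Obox7 between 18 h and 36 h. Obox5 was different in this order, because 36 h ranked between 0 h and 14 h and its break lay between 2 h and the morula. Without replicate 5, the 10 h means were 10149.5 ± 1408 CPM for Obox1, 20507 ± 3606 CPM for Obox2, 7233 ± 1206 CPM for Obox5 and 926 ± 206 CPM for Obox7 (SD, n = 4), a choice made after seeing the data. With it the 10 h means were 8122, 16409.7, 5788 and 741 CPM for the same genes, and that library itself had 9.62, 21.25, 9.62 and 0.625 CPM.

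**Figure D1:**
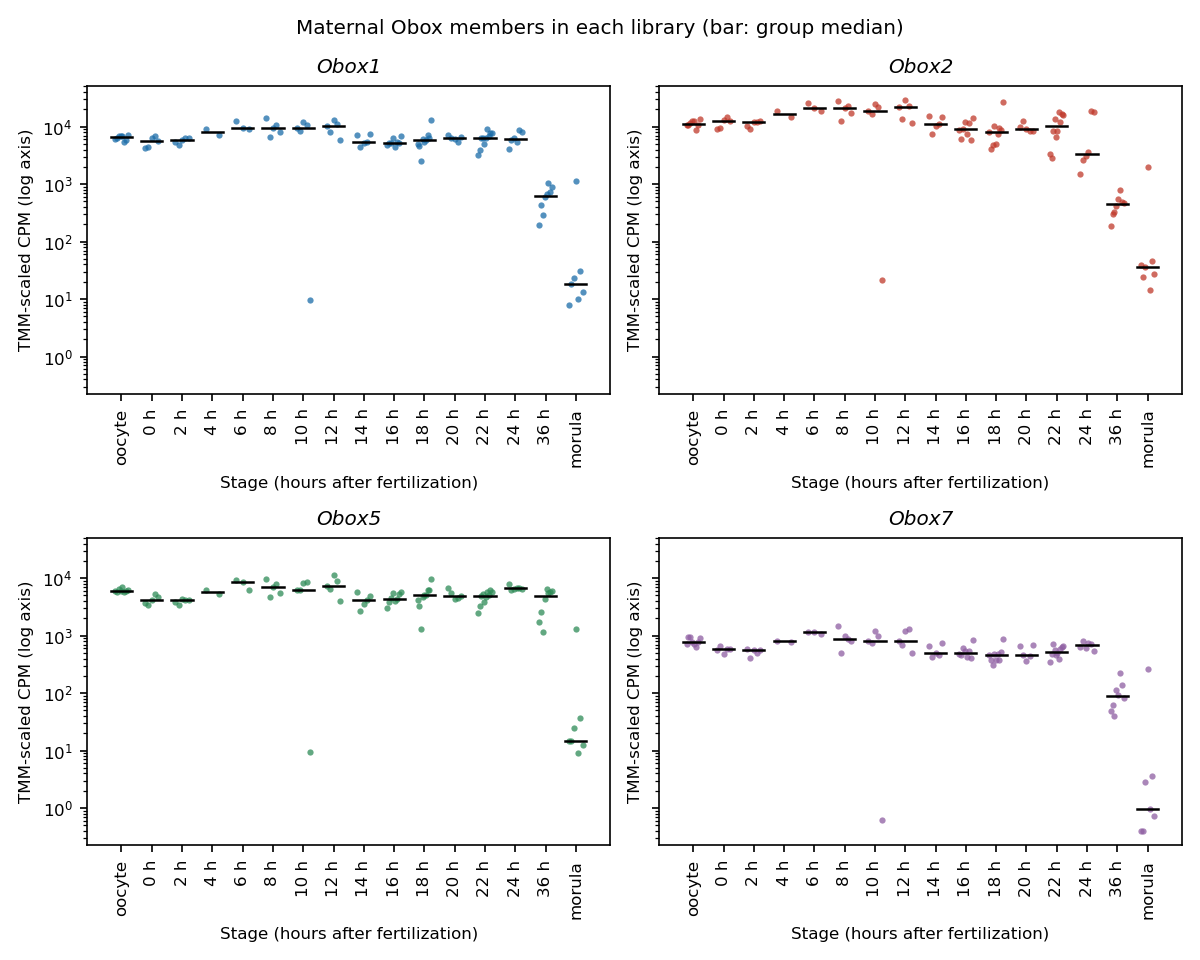
TMM-scaled CPM (log axis) of Obox1, Obox2, Obox5 and Obox7 in each of 96 libraries by stage, each point 1 oocyte or embryo and each bar the group median. The 36 h embryos sit below the earlier groups for Obox1, Obox2 and Obox7 and within them for Obox5, and 1 library at 10 h and 1 morula lie far from their groups.

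At 0 h against oocytes, 2 of the maternal members were lower and none was higher. Obox5 had 3755, 3454, 4195, 5321.5 and 4665 CPM in the 0 h embryos, against a lowest of 5667, a median of 5988 and a highest of 7061 CPM in oocytes. The groups did not overlap, and the fitted change was -0.50 ± 0.11 (log2, SE; edgeR's quasi-likelihood test, adjusted p = 0.000884). Obox7 had 554, 659.8, 476, 586 and 587 CPM at 0 h, against a lowest of 626, a median of 782 and a highest of 943 CPM in oocytes. The groups overlapped in 1 embryo, and the change was -0.46 ± 0.12 (adjusted p = 0.00205). Obox1 changed by -0.19 ± 0.12 (adjusted p = 0.199) and Obox2 by 0.08 ± 0.13 (adjusted p = 0.651), both short of the test. Of all 9556 genes tested, 45.7% passed it in either direction and 22.5% were lower, so 2 of 4 members is near the background. In 1 fit of all 96 libraries neither call held. Obox3, Obox6 and Obox8 had too few counts to be tested.

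At 12 h against 0 h, the 4 maternal members were higher. Obox1 had 10377, 7942.5, 13227, 11264 and 5855 CPM in 12 h embryos, against 4323, 4459, 6264, 6853 and 5673 CPM in 0 h embryos. All but 1 of the 12 h embryos were above the highest 0 h embryo, and the fitted change was 0.81 ± 0.22 (edgeR's quasi-likelihood test, adjusted p = 0.00786). Obox2 had 21836, 13758, 29116, 22899 and 11652 CPM at 12 h, against 9201, 9449, 12862, 14981 and 12416 CPM at 0 h. The groups overlapped, with a change of 0.74 ± 0.24 (adjusted p = 0.0211). Obox5 changed by 0.82 ± 0.23 (adjusted p = 0.00985), with 7317, 6516, 11132, 8939.5 and 4070.5 CPM at 12 h against the 0 h values above. Obox7 changed by 0.64 ± 0.23 (adjusted p = 0.0331), with 792, 689.6, 1182, 1311 and 495 CPM at 12 h. Replicate 5 of the 12 h embryos was the lowest for all 4 genes. Of all 8211 genes tested, 39% passed in either direction and 19.7% were higher.

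These 12 h calls were near the threshold. The Obox7 call was lost without 0 h replicate 1, 3, 4 or 5 or 12 h replicate 3 or 4 (0.47 to 0.66, adjusted p between 0.0541 and 0.101). The Obox2 call was lost without 0 h replicate 1 or 2 or 12 h replicate 3 (0.59 to 0.67, adjusted p between 0.0607 and 0.0626). With scaling by library size alone, where the median of all genes moved to -0.29 from near 0, Obox2 changed by 0.44 and Obox7 by 0.31 and neither passed. Set against 0 h in 1 fit of the 81 libraries from 0 h to 36 h, the maternal members were up by 0.65 to 0.99 at 6 h, 8 h and 12 h and none of these passed. Without 10 h replicate 5, that fit called Obox7 at 6 h (0.95, adjusted p = 0.0456), Obox1 at 8 h, 10 h and 12 h (0.82, 0.86 and 0.84, adjusted p = 0.0397, 0.0390 and 0.0285) and Obox5 at 12 h (0.85, adjusted p = 0.0368). With all libraries 4.1% of the 18543 genes tested were higher at 12 h, and without that library 2.67%, 5.79%, 6.08% and 7.58% of 18245 genes were higher in the 6 h, 8 h, 10 h and 12 h groups.

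Between 12 h and 24 h, Obox2 divided the 24 h embryos. The 24 h libraries fall into 4 whose titles do not end in the letter b (without b) and 2 whose titles do (with b), and the labels do not give its meaning. The titles of the 4 h and 6 h embryos have a b after the stage code and not at the end, and share 1 numbering, so they are counted as without b. Obox2 had 1488.5, 2654.5, 3092 and 3560 CPM in the 24 h embryos without b and 18523 and 18347 CPM in those with b, against 11652 to 29116 CPM in 12 h embryos. Those without b lay below every 12 h embryo, and those with b lay within the 12 h range. Over all 6 embryos the change was -1.29 ± 0.57 and did not pass (edgeR's quasi-likelihood test, adjusted p = 0.120). Without the embryos titled b it was -2.86 ± 0.32 (adjusted p = 1.89e-05), without 24 h replicate 5 alone it was -1.70 (adjusted p = 0.0326) and without replicate 6 alone -1.77 (adjusted p = 0.0340).

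Obox1 did not pass over all embryos. It had 4088, 5838, 6336 and 5481 CPM in the 24 h embryos without b and 8585 and 8176 CPM in those with b, against 5855 to 13227 CPM at 12 h. Its change over all embryos was -0.58 ± 0.24 (adjusted p = 0.0944), and it passed without the embryos titled b (-0.83 ± 0.24, adjusted p = 0.0145) and without 12 h replicate 5 (-0.72, adjusted p = 0.0332). Obox5 had 7883, 6232, 6376, 6723, 6706 and 6534 CPM in the 24 h embryos. All 6 lay within the 12 h range of 4070.5 to 11132 CPM, with a change of -0.15 ± 0.22 (adjusted p = 0.658), and the sign turned with scaling by library size alone (0.10). Obox7 changed by -0.40 ± 0.24 (adjusted p = 0.245). Among all 11083 genes tested 21.6% passed in either direction, 13.4% higher and 8.23% lower, and 1 member, Obox3, was among the higher ones. Obox3 was not tested at 12 h against 0 h and may have passed the filter on low counts here through its 24 h values.

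The ratio of Obox2 to Obox1 per kilobase, in which a library's scaling cancels, did not overlap between titles with and without b at 24 h, and overlapped at 16 h, 18 h and 22 h. Its median was 2.05 in oocytes, 2.46 (0 h), 2.35 (12 h), 2.27 (14 h) and 0.840 (36 h). At 16 h it lay between 1.34 and 2.13 without b and between 1.31 and 2.42 with b. At 18 h the 4 without b lay between 1.03 and 2.19 (median 1.89) and the 5 with b between 1.06 and 2.35 (median 1.52). All titles at 20 h end in b, so stage and letter cannot be told apart there, and the ratio lay between 1.51 and 2.26. Of the 22 h embryos, the 3 without b had 0.8315, 1.22 and 1.53, and the 7 with b had a lowest of 1.51, a median of 2.32 and a highest of 2.47. Of the 24 h embryos, the 4 without b lay between 0.420 and 0.750, and the 2 with b at 2.49 and 2.59. The 24 h embryos titled b lay near the 12 h embryos, at 2.00 to 2.54, and those without b lay within or below the range of the 36 h embryos, at 0.618 to 1.28. The ratio of Obox5 to Obox1 per kilobase was 0.845 in oocytes, 0.706 at 12 h and 6.22 at 36 h (medians), with 36 h embryos between 3.56 and 8.60. At 24 h it was between 0.895 and 1.715 without b and 0.695 and 0.711 with b. These ratios are descriptions, with no test, and they rest on the uncertain split of shared reads.

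**Figure D2:**
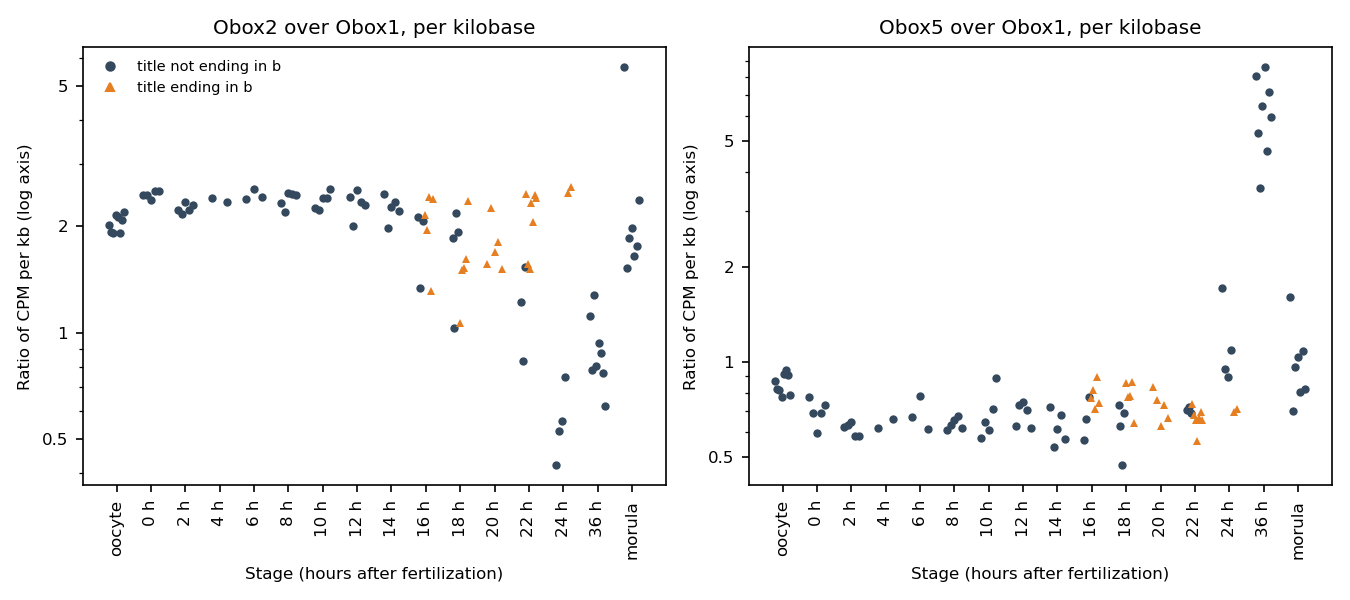
Ratio of CPM per kilobase of exon (log axis) of Obox2 over Obox1 (left) and Obox5 over Obox1 (right) in each library by stage, circles for titles that do not end in b (4 h and 6 h among them) and triangles for titles that do. Obox2 over Obox1 runs near 2.05 to 2.46 until 14 h and lies under 1 in 24 h embryos without b, and Obox5 over Obox1 lies between 3.56 and 8.60 at 36 h.

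At 36 h against 24 h, Obox1, Obox2 and Obox7 were lower and Obox5 did not pass the test. Obox1 had a lowest of 192, a median of 632 and a highest of 1055 CPM in 36 h embryos, against a lowest of 4088, a median of 6087 and a highest of 8585 CPM in 24 h embryos. The groups did not overlap, and Obox1 fell by 3.30 ± 0.34 on the log2 scale, 9.86-fold (edgeR's quasi-likelihood test, adjusted p = 2.45e-06). Obox2 had a lowest of 186, a median of 444 and a highest of 801 CPM at 36 h, against a lowest of 1488.5, a median of 3326 and a highest of 18523 CPM at 24 h. The groups did not overlap, with a fall of 4.08 ± 0.56 (adjusted p = 3.41e-05). Without the 2 24 h embryos titled b, Obox2 fell by 2.54 ± 0.33 (adjusted p = 6.44e-05) and Obox1 fell by 3.08 ± 0.37 (adjusted p = 3.24e-05). Obox7 had a lowest of 40.15, a median of 87.6 and a highest of 223 CPM at 36 h, against a lowest of 529.7, a median of 675 and a highest of 808 CPM at 24 h. It fell by 2.65 ± 0.33 (adjusted p = 1.30e-05), also without overlap.

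Obox5 was the maternal member that did not pass. It had 1744, 2618, 1169, 4301.5, 6480.4, 5521, 5852 and 5959.9 CPM in the 8 embryos at 36 h, against 6232 to 7883 CPM at 24 h. 7 of the 8 lay below the lowest 24 h embryo, 1 lay within the 24 h range, and the change was -0.59 ± 0.33 (adjusted p = 0.142). By CPM of the plain gene total, the 24 h range of Obox5 was 5682 to 8114 CPM. Replicates 5, 7 and 8 at 36 h lay within it, at 7364, 7102 and 7118 CPM, and the others below it. Against 0 h the Obox5 level at 36 h differed by -0.01 ± 0.42 (adjusted p = 0.985) in the fit of 81 libraries, where Obox1 fell by 3.17, Obox2 by 4.73 and Obox7 by 2.50 (adjusted p = 1.97e-09, 1.66e-11 and 3.67e-07). Of the genes in that fit 21.5% were lower and 32.8% higher at 36 h. The differences between Obox5 and the other members were not tested.

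Obox3, Obox6 and Obox8 were higher at 36 h. Obox8, the member whose transcript shares no 50-base word with another gene, had 286, 74.4, 33.2, 74.8, 48.7, 22.45, 87.4 and 40.4 CPM in 36 h embryos, against 15.7, 0, 0.495, 2.13, 0 and 0.652 CPM in 24 h embryos. Each 36 h embryo lay above each 24 h embryo, and the change was 4.60 ± 1.03 (edgeR's quasi-likelihood test, adjusted p = 0.00179). Obox6 had 356, 172.5, 72.2, 192, 189.7, 139.5, 146 and 121.2 CPM at 36 h, against 76.1, 0, 1.49, 12.0, 3.07 and 2.61 CPM at 24 h. Only the highest 24 h embryo reached the 36 h range, and the change was 3.45 ± 0.96 (adjusted p = 0.00742). Obox3 had 431.5, 97.1, 155, 206, 284, 43.7, 149.9 and 103.1 CPM at 36 h, against 65.9, 3.68, 4.46, 37.1, 8.97 and 9.13 CPM at 24 h. The groups overlapped through 24 h replicate 1, and the change was 3.12 ± 0.69 (adjusted p = 0.00152).

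That 24 h embryo, replicate 1, set the size of these changes. Without it the change was 3.86 ± 0.64 for Obox3, 5.47 ± 0.71 for Obox6 and 6.85 ± 0.86 for Obox8 (adjusted p = 0.000107, 1.20e-05 and 7.97e-06). At 36 h, 6 of the 7 members passed the test, 3 higher and 3 lower, where 52.3% of 12636 genes passed, 29.1% higher and 23.2% lower. The members that rose had passed the filter on low counts through their 36 h values, so their share of calls is no evidence by itself.

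**Figure D3:**
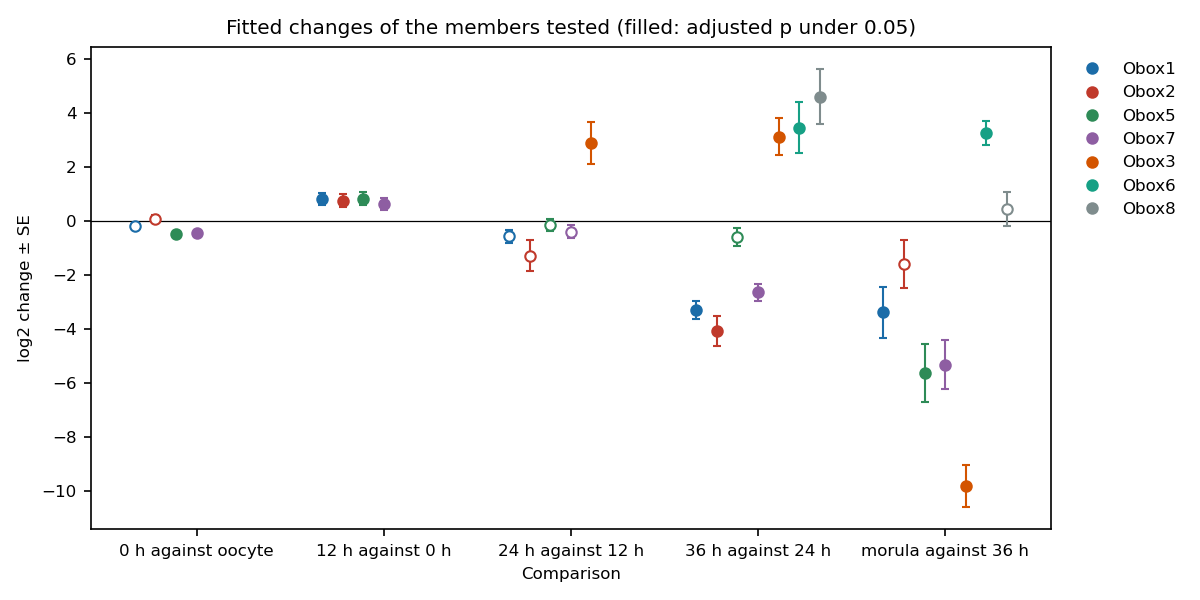
Fitted log2 changes with standard errors of the members tested in each of 5 comparisons, filled where the adjusted p of edgeR's quasi-likelihood test was under 0.05 and open where not. At 36 h against 24 h Obox1, Obox2 and Obox7 lie between -4.08 and -2.65, Obox5 at -0.59, and Obox3, Obox6 and Obox8 between 3.12 and 4.60.

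Obox3 and Obox6 were first called higher at 24 h, Obox6 mainly through 1 embryo. Before it, Obox3 group means lay between 1.91 and 5.895 CPM, Obox6 means between 0.764 and 2.25 CPM, and Obox8 means between 0 and 0.828 CPM. Obox8 had 0 counts in all 12 h embryos, which allows a level of up to 0.345 CPM over the group (3 counts, counting error only). In 24 h embryos against 12 h embryos, Obox3 had 65.9, 3.68, 4.46, 37.1, 8.97 and 9.13 CPM, against 2.995, 3.76, 4.90, 2.04 and 1.75 CPM, a change of 2.88 ± 0.79 (adjusted p = 0.0180), and of 2.11 ± 0.67 without 24 h replicate 1 (adjusted p = 0.0422). All but 2 of the 24 h embryos lay above the 12 h range. Obox6 and Obox8 did not pass the filter on low counts in this comparison. Against 0 h in the fit of 81 libraries, Obox3 was up by 2.52 ± 0.63 and Obox6 by 4.07 ± 0.98 at 24 h (adjusted p = 0.00203 and 0.00139), where 12% of genes were higher. Obox8 was up by 2.08 ± 1.11 and did not pass (adjusted p = 0.175). For Obox6, replicate 1 held 532 of the 617 counts of the 24 h group. The other 24 h embryos had 0 to 12.0 CPM of Obox6, and this fit was not repeated without replicate 1. At 36 h all 3 had passed, at 5.69 for Obox3, 7.59 for Obox6 and 6.79 for Obox8. Of the 91 pairs of a member and a later time in that fit, 5 were higher and 3 lower, where over all genes and the 13 later times 7.16% of pairs were higher and 5.59% lower.

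The 24 h embryos highest in Obox3, Obox6 and Obox8 were those highest in the endogenous retrovirus MERVL, a repeat family transcribed at the two-cell stage. MERVL-int had 3490, 82.6, 119.7, 2265, 14.4 and 65.3 CPM in 24 h replicates 1 to 6, and Zscan4d, a gene of the two-cell stage, had 487, 3.19, 3.47, 462, 5.195 and 3.91 CPM. Replicates 1 and 4, both without b in the title, were the highest for MERVL-int, Zscan4d, Obox3, Obox6 and Obox8. At 36 h no such split was seen. There MERVL-int lay between 3263.5 and 12338 CPM, and its lowest embryo, replicate 2, had Obox3 at 97.1, Obox6 at 172.5 and Obox8 at 74.4 CPM, within the range of the other embryos. Replicate 1 of the 36 h embryos was the highest for Obox3, Obox6 and Obox8 and the lowest for Obox1 and Obox2.

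**Figure D4:**
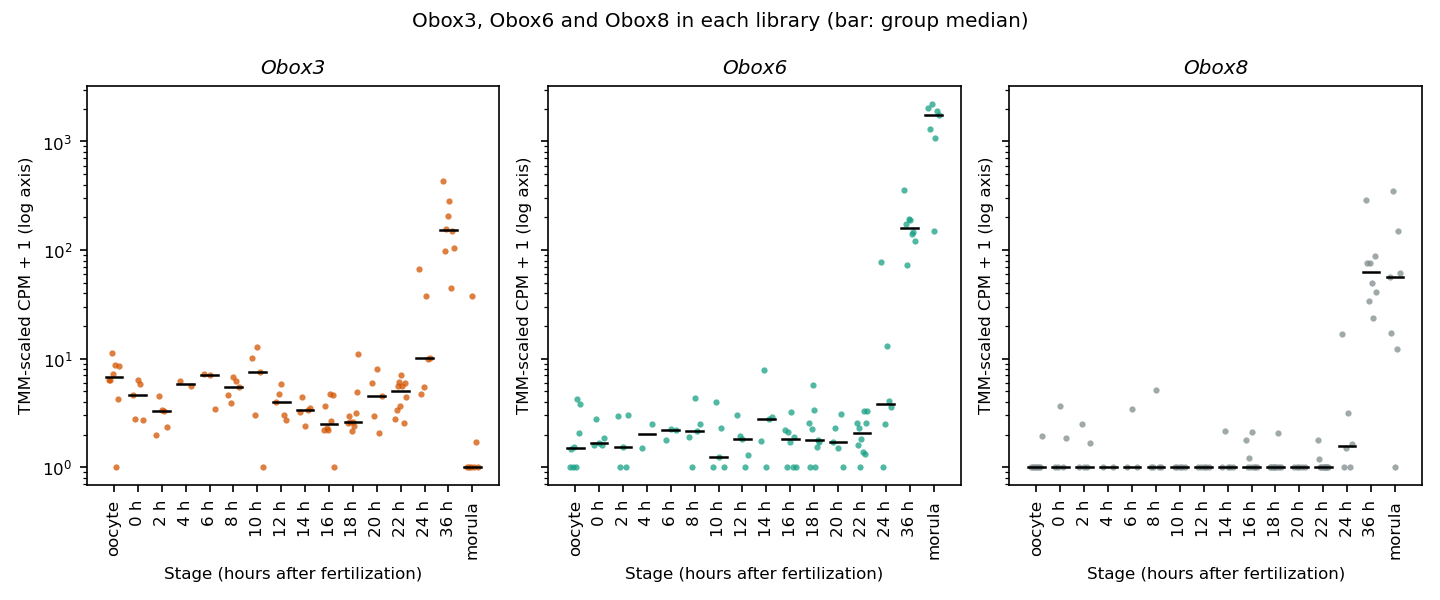
TMM-scaled CPM + 1 (log axis) of Obox3, Obox6 and Obox8 in each of 96 libraries by stage, each point 1 oocyte or embryo and each bar the group median. The 24 h embryos spread between the low earlier groups and the 36 h embryos, and in morulae Obox3 is near 0 while Obox6 is at its highest.

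In morulae against 36 h embryos, Obox6 was higher and Obox3 was close to 0. Obox6 had 2033, 1309.6, 2206, 147.5, 1077, 1906 and 1756 CPM in the 7 morulae, against a lowest of 72.2, a median of 159 and a highest of 356 CPM in 36 h embryos. All but replicate 4, the morula with 10223 counts, lay above every 36 h embryo. The change was 3.26 ± 0.43 (edgeR's quasi-likelihood test, adjusted p = 3.81e-07), and 3.56 without replicate 4. Obox3 had 2 counts in all 7 morulae, 1 of them in replicate 4, against 4363 counts in 36 h embryos. Its fitted change by the same test was -9.81 ± 0.79, 898-fold lower (adjusted p = 2.40e-10). By shares of the plain gene totals, without TMM factors, it was 1840-fold lower in morulae. The exact 95% interval of that ratio was 508 to 15200 and covers counting error only. Without replicate 4 it was 3670-fold lower by these shares (658 to 145000).

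Obox8 was not called in either direction in morulae against 36 h embryos. It had 55.1, 16.1, 348, 0, 11.2, 149.5 and 60.2 CPM in morulae, against a lowest of 22.45, a median of 61.6 and a highest of 286 CPM in 36 h embryos. The groups overlapped, the change was 0.44 ± 0.62 (adjusted p = 0.535), and without morula replicate 3 it was -0.35 ± 0.56 (adjusted p = 0.593). These values do not show that its level was the same.

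The maternal members were at their lowest in morulae. Obox5 had 14.5, 14.5, 24.7, 1327, 9.07, 37.0 and 12.5 CPM in morulae, against 1169 to 6480.4 CPM in 36 h embryos, a change of -5.63 ± 1.06 (adjusted p = 7.24e-05). Outside replicate 4 no morula reached the 36 h range, and the change without it was -7.62. Obox1 changed by -3.39 ± 0.96 (adjusted p = 0.00342) and Obox7 by -5.33 ± 0.91 (adjusted p = 2.02e-05), and without replicate 4 by -4.96 and -6.04. Obox2 changed by -1.60 ± 0.88 and did not pass (adjusted p = 0.108), while without replicate 4 it fell by 3.60 ± 0.38 (adjusted p = 3.05e-08). In that morula Obox1, Obox2, Obox5 and Obox7 had 31, 53, 36 and 7 counts of 10223. The 6 other morulae had 60 to 98 Obox2 counts of 1130322 to 4202393. Of the 7 members 5 passed, 1 higher and 4 lower, and of 11216 genes 71.7% passed, 28.2% higher and 43.5% lower.

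The make-up of the family differed between the stages. As a share of the summed CPM per kb of the 7 members, Obox2 held 50.4 ± 1.84% in oocytes, 57.5 ± 1.05% (0 h), 56.4 ± 2.52% (12 h), 32.8 ± 20.5% (24 h) and 9.94 ± 3.92% (36 h), as mean ± SD. Obox5 held 21.1 ± 1.55% in oocytes, 16.2 ± 1.08% (0 h), 16.7 ± 1.565% (12 h), 31.8 ± 13.4% (24 h) and 65.3 ± 10.3% (36 h). At 36 h Obox6 held 5.47 ± 4.33%, Obox8 3.38 ± 4.53% and Obox3 2.63 ± 2.495%. In morulae Obox6 held 79.4 ± 33.6%, and without replicate 4 it held 91.95 ± 5.48%, between 82.6% and 96.6%. The summed CPM of the 7 members was 24686 in oocytes, 22152 (0 h), 38078 (12 h), 21815 (24 h), 5794 (36 h) and 2315.5 in morulae. Replicate 4 was the highest morula in this sum, at 4866 CPM, where the median of the morulae was 2151 CPM. Tested as 1 summed row, the 4 maternal members fell by 1.93 ± 0.36 at 36 h against 24 h (adjusted p = 0.000354) and the 3 others rose by 3.47 ± 0.79 (adjusted p = 0.00211).

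**Figure D5:**
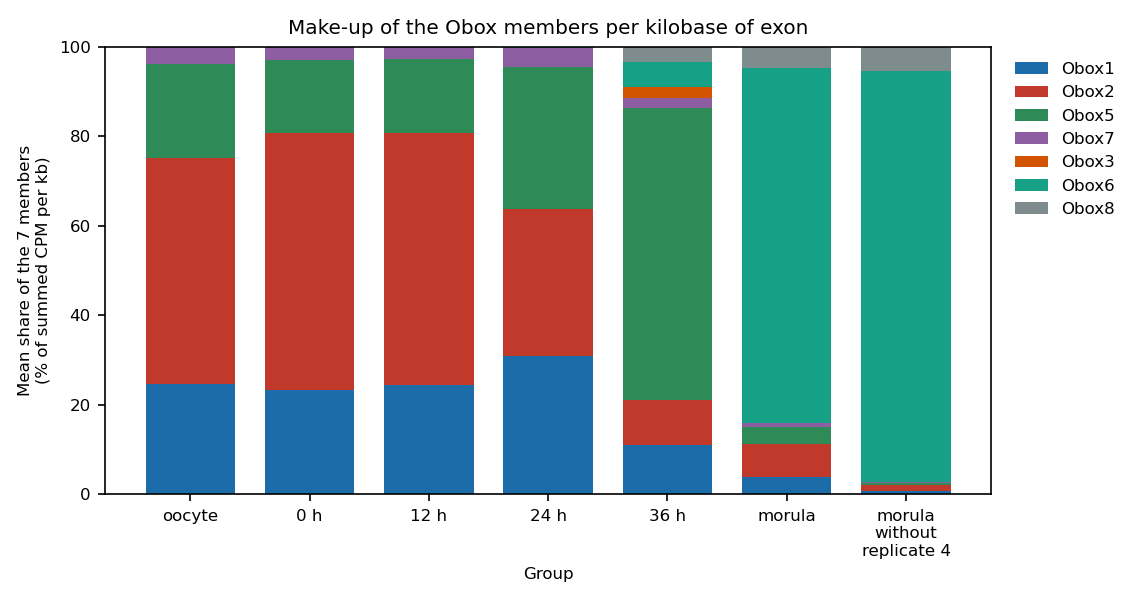
Mean share of each member in the summed CPM per kb of the 7 members (% of the sum) in 6 groups and in morulae without replicate 4. Obox2 holds over 50% until 12 h, Obox5 holds 65.3% at 36 h, and Obox6 holds 79.4% in morulae, or 91.95% without replicate 4.

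Of the copies listed as pseudogenes, the rows Obox3-ps1 to Obox3-ps7 were higher at 36 h against 24 h, as Obox3 was, and Obox3-ps8 was lower. Obox3-ps1 to Obox3-ps7 summed to 26.5 ± 4.77 CPM in oocytes, 11.9 ± 2.92 CPM (0 h), 11.3 ± 4.52 CPM (12 h), 72.9 ± 86.9 CPM (24 h), 632.5 ± 323.5 CPM (36 h) and 8.04 ± 12.8 CPM in morulae. Among the morulae replicate 4 had 36.9 CPM of these rows, from 1 count, and the other 6 had 1.18 to 4.99 CPM. The rows of Obox4, another homeobox gene of the family, summed to 1.63 ± 1.28 CPM (12 h), 232.5 ± 339 CPM (24 h), 379.9 ± 602 CPM (36 h) and 0.447 ± 0.841 CPM in morulae. At 36 h against 24 h, 19 of the 48 other Obox rows were tested, 7 were higher and 1 lower, where 29.1% and 23.2% of all genes were, with a median change of 0.665 beside 0.05 for all genes. Only 3 of these rows were tested at 24 h against 12 h. Most may thus have passed the filter on low counts through their 36 h values, and these shares are no evidence by themselves. The 7 that were higher were the Obox3-ps1 to Obox3-ps7 rows, copies that may share reads and so may not be separate calls. Among them Obox3-ps5 had 346 ± 189 CPM at 36 h against 36.4 ± 51.5 CPM at 24 h (3.28 ± 0.81, adjusted p = 0.00356). The row that was lower was Obox3-ps8, at 3.99 ± 1.505 CPM at 36 h against 13.3 ± 5.52 CPM at 24 h (-1.63 ± 0.39, adjusted p = 0.00228). In morulae against 36 h embryos, 8 of these rows were tested and 8 were lower, where 43.5% of all genes were. The Obox3-ps1 to Obox3-ps7 rows held 50 counts in the 7 morulae and the Obox4 rows 5. Such rows could pass the filter on low counts only through their 36 h values, so this share is no evidence by itself. Shared words tie Obox3 most to Obox3-ps3, at 14.5% of its 50-base words, and how reads were divided among these rows was not tested.

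Genes of the two-cell program were mostly lower in morulae than at 36 h, and few passed at 36 h against 24 h. Of 28 two-cell genes, such as the Zscan4, Usp17l and Tdpoz families, 26 were tested at 36 h against 24 h, 4 were higher and 0 lower, where 29.1% of all genes were higher, and the median change was 1.58 beside 0.05 for all genes. Among them Tdpoz1 had 105.2 ± 39.8 CPM at 36 h against 6.97 ± 10.9 CPM at 24 h (3.91 ± 0.94, adjusted p = 0.00292). In morulae against 36 h embryos, 25 were tested and 23 were lower, where 43.5% of all genes were lower, with a median of -8.47 beside -0.55. These two-cell genes passed the filter on low counts mainly through their 36 h values, so that share is no evidence by itself. Zscan4d had 0.172 ± 0.302 CPM in morulae against 243 ± 104.1 CPM at 36 h (-10.31 ± 0.63, adjusted p = 1.52e-11). At 24 h against 12 h, 6 were tested and 3 were higher (13.4% of all genes), and at 12 h against 0 h, 3 were tested and 3 were lower (19.4% of all genes). Part of the 6 may have passed the filter through 24 h values, so their share is no evidence by itself either. At 0 h against oocytes 3 were tested and 2 were higher (23.3% of all genes), Tcstv1 and Tcstv3.

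Of 22 homeobox genes outside the family, Crxos was higher at 36 h and again in morulae. It had 118.1 ± 49.1 CPM at 36 h against 5.15 ± 7.07 CPM at 24 h (4.48 ± 0.69, adjusted p = 8.29e-05), and 2274 ± 928 CPM in morulae against those 36 h embryos (4.40 ± 0.42, adjusted p = 2.98e-09). Nobox, a homeobox gene that oocyte growth needs, had 31.2 ± 20.6 CPM at 36 h against 198 ± 35.8 CPM at 24 h (-2.555 ± 0.37, adjusted p = 4.17e-05). Duxbl1, a double-homeobox gene, had 83.7 ± 53.45 CPM at 24 h against 3.53 ± 2.59 CPM at 12 h (4.68 ± 0.68, adjusted p = 0.000805). Of the list, 8 of 12 tested were higher at 24 h against 12 h and 0 lower, where 13.4% and 8.23% of all genes were. Only 6 of the list were tested at 12 h against 0 h. Part of the 12 may thus have passed the filter on low counts through 24 h values, so this share is no evidence by itself. At 36 h against 24 h 3 of 14 were higher and 4 lower, near the 29.1% and 23.2% of all genes, and in morulae against 36 h embryos 2 of 12 were higher and 8 lower, beside 28.2% and 43.5%. The medians were 1.295, -0.18 and -1.76, beside 0.05, 0.05 and -0.55 for all genes. At 12 h against 0 h 2 of 6 were higher (19.7% of all genes), and at 0 h against oocytes 3 of 8 were lower (22.5%).

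Of 20 regulators linked to genome activation, 3 Krüppel-like factor genes are named. Klf17 had 832 ± 145 CPM at 12 h against 428 ± 39.7 CPM at 0 h (0.965 ± 0.18, adjusted p = 0.000345) and 139.4 ± 77.95 CPM at 36 h against 648 ± 218 CPM at 24 h (-2.10 ± 0.32, adjusted p = 7.31e-05). Klf5 and Klf4 were higher at 36 h, Klf5 with 43.9 ± 21.3 CPM against 2.415 ± 3.798 CPM at 24 h (4.11 ± 0.76, adjusted p = 0.000305). At 36 h against 24 h 6 of 18 tested were higher and 4 lower, near the 29.1% and 23.2% of all genes, and in morulae against 36 h embryos 8 of 19 were higher and 4 lower, beside 28.2% and 43.5%. At 24 h against 12 h 1 of 16 was higher and 2 lower, beside 13.4% and 8.23%. At 12 h against 0 h 3 of 14 were higher and 2 lower, beside 19.7% and 19.4%, and at 0 h against oocytes 1 of 14 was higher and 6 lower, beside 23.3% and 22.5%. In these 5 comparisons, the earliest stage first, the medians were -0.29, 0.05, 0.07, 0.17 and 0.44, beside -0.02, -0.02, 0.05, 0.05 and -0.55 for all genes.

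The genes most like each member in their course were named by Pearson's r over the 16 group means of log2(CPM + 1), out of 10247 genes, as a description of points that share libraries. The summed maternal members were most like Epsti1 (r = 0.993), Ttc6 (0.993) and Tmco3 (0.993). Epsti1 had 149.5 CPM in oocytes, 188 CPM (12 h), 28.5 CPM (36 h) and 0.6535 CPM in morulae. Obox3 was most like the unnamed gene models Gm13871 (r = 0.983) and Gm11756 (0.982), and among named genes like Snai2 (0.969). Its morula mean includes replicate 4, where 1 count gave 36.9 CPM. Obox6 was most like Kcnk4 and Cited1 (r = 0.997 and 0.997), a transcription coactivator gene, with Cited1 at 12.5 CPM (24 h), 133.7 CPM (36 h) and 664 CPM (morulae). Obox8 was most like Zfp239 (r = 0.995) and Cst6 (0.994), with Zfp239 at 2.24 CPM (24 h), 18.1 CPM (36 h) and 16.8 CPM (morulae).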

How the data were processed

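RNA of single oocytes and embryos was made into libraries with SMART-Seq v4 and Nextera XT, per the labels' protocols. The submitters' processing notes name Trimmomatic 0.39, STAR, featureCounts and the build mm10. The deposited table holds expected counts made by the authors, since 28.4% of its nonzero gene values were not whole (tolerance 0.01). The annotation release and the treatment of reads from near-identical copies are not given in the sources used here. Of the 55401 gene IDs 55141 matched a GENCODE symbol, and 873 repeat rows were left out of library totals.

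Expected counts were rounded to whole numbers. Genes were kept with filterByExpr, scaled with TMM factors and tested with edgeR 4.0.16 (glmQLFit, robust, and glmQLFTest) in R 4.3.3, with Benjamini-Hochberg adjustment over all genes tested and a threshold of 0.05. Each comparison was fitted on its 2 groups, and each later time was also set against 0 h in 1 fit of the 81 libraries from 0 h to 36 h. Changes are the first-named stage over the second on the log2 scale. The SE is the absolute log2 change over the square root of the test's F statistic, so it is imprecise where the change is near 0. Levels are TMM-scaled CPM with factors over all 96 libraries, and per-kilobase levels use union exon lengths of GENCODE on GRCm38. Replicate numbers follow the order within a group. The fits were tested on simulated data, where at 36 h against 24 h 54.5% of 4-fold and 4.1% of 2-fold changes were recovered among 12261 genes.

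The members and lists were chosen with earlier results of these data known. All 7 members are named in each comparison, and from a list at most 4 genes of the largest change past the test. Alternatives were library size alone, DESeq2 1.42.0 size factors and its Wald test, no filter, fractions cut off, 1 fit of all 96 libraries, members summed, a replicate block, titles that end in b left out, and each library left out. All 5 titles at 20 h end in b, and in the fit of 81 libraries these embryos were kept when the others titled b were left out. In the fit of 81 libraries, only libraries of groups of at most 5 were left out 1 at a time. Levels rest on counts whose number limits their precision, and intervals and limits for 0 counts (3 counts, 95%) cover counting error only.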

Additional observations from a re-analysis of the deposited data

Results flagged for a closer look

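Of 95 levels of a member in a group of 4 to 10 libraries, 25 held a highest or lowest library far from its neighbour for the group's range, in 13 libraries. Chance marks about 1 in 20 such groups where values are normally distributed, a rate that need not hold for these CPM. A group with counts in only 1 library is always marked, and marks of several members in 1 library are not independent. Of the 25, 6 rest on 3 counts or fewer.

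Morula replicate 4, the library with 10223 counts, was far above the other morulae for Obox1 (1143 CPM, next 30.5), Obox2 (1954 CPM, next 46.45), Obox5 (1327 CPM, next 37.0), Obox7 (258 CPM, next 3.63) and Obox3 (36.9 CPM, from 1 count). Replicate 5 of the 10 h embryos was far below its group for Obox1 (9.62 CPM, next 8540.1) and Obox5 (9.62 CPM, next 6172). Replicate 9 of the 18 h embryos was the highest for Obox1 (13266 CPM), Obox2 (27045 CPM), Obox7 (859 CPM) and Obox3 (10.0 CPM, from 29 counts).

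Replicate 1 of the 24 h embryos was the highest for Obox5 (7883 CPM), Obox6 (76.1 CPM) and Obox8 (15.7 CPM). Replicate 1 of the 36 h embryos was the highest for Obox6 (356 CPM) and Obox8 (286 CPM), and morula replicate 3 for Obox8 (348 CPM, next 149.5). Obox7 was highest in 16 h replicate 8 (828 CPM, next 600.1).

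The remaining values lie at low counts. For Obox6, 0 h replicate 2 was the highest of its group with 1.78 CPM and 14 h replicate 2 with 6.88 CPM. For Obox8, oocyte replicate 8 held the only count of its group (0.953 CPM), as did 14 h replicate 2 (1.15 CPM). The Obox8 counts of the 8 h group were all in replicate 3 (4.14 CPM), those of the 18 h group all in replicate 7 (1.08 CPM), and the 22 h group was highest in replicate 1 (0.774 CPM).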

How the results depend on the processing

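Counts of members past the test moved as follows. At 0 h against oocytes 2 passed, and 0 in 1 fit of all 96 libraries, where 1601 and not 4371 genes passed. At 12 h against 0 h 4 passed, 2 with library size alone, 0 in 1 fit of all 96 libraries (1672 and not 3206 genes passed), 3 with DESeq2 and 2 to 4 with 1 library left out. At 24 h against 12 h 1 passed, 2 with DESeq2, 3 in 1 fit of all 96 libraries, 3 without the embryos titled b (4068 and not 2397 genes passed) and 1 to 2 with 1 library left out. At 36 h against 24 h 6 passed under each alternative, except that DESeq2 called 5 and gave Obox6 no adjusted p. In morulae against 36 h embryos 5 passed and 5 to 6 with 1 library left out, and 8045 genes passed, 16826 with no filter and 13219 in 1 fit of all 96 libraries. Of the pairs of a member and a later time against 0 h, 8 passed, and 8 to 13 with 1 library left out, 13 without 10 h replicate 5. For these pairs, only libraries of groups of at most 5 were left out 1 at a time. All 8 calls lie at 24 h or 36 h, groups whose libraries were not left out in this way.

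With the replicate block 2 members passed at 24 h against 12 h, Obox3 and Obox2 (-2.71, adjusted p = 0.000123), and 3 at 12 h against 0 h, without Obox7 (0.57, adjusted p = 0.0680). In morulae against 36 h embryos Obox2 passed with the block (-3.30, adjusted p = 0.000217). Of the 5 title numbers that 12 h and 0 h embryos share, the deviations of same-numbered embryos correlated at -0.13 to 0.155 and 2 numbers matched their own best, so the numbers were not taken as pairs. The block changed no other call of a member in the 5 comparisons, and gave Obox2 -2.89 at 36 h against 24 h.

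Signs turned for members that had not passed: Obox2 at 0 h against oocytes without 0 h replicate 4 (-0.02 to 0.17 with 1 library left out), Obox5 at 24 h against 12 h with library size alone (0.10) and with the replicate block (0.07), and Obox8 in morulae against 36 h embryos without morula replicate 3 (-0.35 to 0.94 with 1 library left out). In morulae against 36 h embryos the Obox1 call was lost with library size alone (-3.03, adjusted p = 0.0867) and the Obox7 call with DESeq2 (-2.33, adjusted p = 0.101). The causes were not tested. With plain gene totals 5 group levels of a member moved by more than 1 SD. Depth limits Obox8 before 24 h, with 0 counts in the 4 h, 10 h, 12 h and 20 h groups.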
